A study of Mus musculus with 16 samples.

Results

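TRAV6 family receptors are T cell receptors whose alpha chain was built with a variable gene labelled TRAV6, TRAV6D or TRAV6N. They were read from 8 single-cell V(D)J libraries of CD44high CD4+ T cells, antigen-experienced helper cells, sorted from mouse spleen. A cell was kept when it had exactly 1 beta chain (TRB) and 1 or 2 alpha chains (TRA). Of 38108 such cells among 74368 barcodes, 6768 (17.8%) carried a TRAV6 chain. In 6338 of them that chain was the main alpha chain, the one with most unique molecular identifiers (UMIs), in 430 it was only the second alpha chain, and 84 cells carried 2 TRAV6 chains. Cells of 1 library with the same beta chain and the same main alpha chain were counted as 1 clonotype, which gave 5177 TRAV6 clonotypes of 30489 (17.0%). The family was chosen from earlier results on these libraries, above all the low share of TRAV6N-5 in Eomes knockout libraries, so that difference is given here as a description and supports nothing.

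The libraries came from 4 groups, with 1 library a group in each of 2 experiments. All mice had received NK1.1-depleting antibody (50 µg on days -2 and 5), which removes natural killer cells, and Vk12653 multiple myeloma cells on day 0. Spleens were taken on day 18. The groups were Eomes KO with agonistic anti-4-1BB (20 µg on days 10, 13 and 16), KO with control IgG on the same days, Eomes WT with anti-4-1BB and WT with control IgG. Eomes is a T-box transcription factor of cytotoxic and memory T cells, and 4-1BB (CD137) is a costimulatory receptor. KO mice were Eomesfl/fl-CD4Cre in experiment 1, in which Cre runs from a CD4 promoter, and Eomesfl/fl-ERT2CD4Cre in experiment 2. WT mice carried the Eomes-IRES-GFP reporter in both experiments, and tamoxifen was given to KO and WT mice of experiment 2. The kind of knockout, tamoxifen and the experiment, which the labels give as the batch, cannot be told apart. Loss of Eomes and the mouse line used for each genotype cannot be told apart either. Nothing in the labels says how many mice each library pooled, so n is the number of libraries, and tests measure the spread between them.

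An alpha chain is assembled in the thymus when 1 of many TRAV genes is joined to 1 of many TRAJ genes. In textbook accounts the first joins link TRAV genes close to the J cluster with the J genes nearest to them, and later joins reach further out on both sides. In mice part of the TRAV cluster is copied several times, and the letters D and N mark the copies. The V gene encodes the complementarity-determining regions CDR1 and CDR2 of the chain, and CDR3 spans the V to J junction and contacts the peptide.

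The RefSeq annotation (GRCm38.p6) holds 15 TRAV6 genes on chromosome 14. In order along the chromosome, towards the J genes, they are TRAV6-1 and TRAV6-2, then TRAV6D-3 to TRAV6D-7, TRAV6N-5 to TRAV6N-7, and TRAV6-3 to TRAV6-7-DV9. TRAV6-1 starts at 52638515 and TRAV6-7-DV9 ends at 53710419. The files hold 14 of these labels, and all 14 matched the annotation. TRAV6-6 had 0 contigs, and TRAV6D-7 had 1 contig and none in a kept cell, which leaves 13 labels.

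Copies with the same number are close to identical, and the sequences below show where they differ. They are the commonest V parts, from the start of framework 1 to the end of framework 3, read from the deposited contigs. Capitals mark the bases that differ from the copy named beside them.
TRAV6-5 and TRAV6N-5: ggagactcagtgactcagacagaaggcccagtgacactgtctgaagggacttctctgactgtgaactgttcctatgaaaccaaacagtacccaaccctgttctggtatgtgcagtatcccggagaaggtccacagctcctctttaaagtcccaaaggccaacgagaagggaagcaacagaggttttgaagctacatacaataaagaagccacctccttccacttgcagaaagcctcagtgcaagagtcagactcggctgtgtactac
TRAV6D-5, capitals against TRAV6-5: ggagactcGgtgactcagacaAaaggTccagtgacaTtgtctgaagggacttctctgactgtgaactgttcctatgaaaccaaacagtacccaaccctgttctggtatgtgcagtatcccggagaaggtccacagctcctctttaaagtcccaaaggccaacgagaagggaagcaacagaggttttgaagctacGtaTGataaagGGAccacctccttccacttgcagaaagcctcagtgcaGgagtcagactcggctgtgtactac
TRAV6-7-DV9, capitals against TRAV6N-7: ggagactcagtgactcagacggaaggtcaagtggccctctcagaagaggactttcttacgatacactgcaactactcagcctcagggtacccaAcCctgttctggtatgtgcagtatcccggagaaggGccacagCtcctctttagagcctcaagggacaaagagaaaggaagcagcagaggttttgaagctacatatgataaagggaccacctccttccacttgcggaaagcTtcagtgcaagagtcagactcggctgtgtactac
TRAV6N-7, capitals against TRAV6-7-DV9: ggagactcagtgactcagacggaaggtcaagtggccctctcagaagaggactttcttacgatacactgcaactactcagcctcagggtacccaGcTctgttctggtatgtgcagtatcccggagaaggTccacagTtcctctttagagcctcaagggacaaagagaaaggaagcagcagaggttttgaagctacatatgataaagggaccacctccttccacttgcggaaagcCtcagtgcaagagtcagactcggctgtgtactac
TRAV6D-6, capitals against TRAV6N-6: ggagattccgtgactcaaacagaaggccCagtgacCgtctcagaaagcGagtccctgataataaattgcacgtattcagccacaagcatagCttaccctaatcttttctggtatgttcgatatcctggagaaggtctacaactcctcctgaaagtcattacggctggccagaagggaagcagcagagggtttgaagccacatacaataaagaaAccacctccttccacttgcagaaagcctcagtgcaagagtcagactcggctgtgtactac
TRAV6N-6, capitals against TRAV6D-6: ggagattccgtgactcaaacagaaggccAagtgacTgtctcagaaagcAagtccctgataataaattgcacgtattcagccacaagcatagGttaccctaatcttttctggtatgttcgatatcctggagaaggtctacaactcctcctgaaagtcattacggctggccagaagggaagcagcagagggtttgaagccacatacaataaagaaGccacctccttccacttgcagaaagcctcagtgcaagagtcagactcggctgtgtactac

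TRAV6-5 and TRAV6N-5 had the same 267 bases, with 0 differences, and so did TRAV6-3 and TRAV6D-3. TRAV6D-5 differed from TRAV6-5 at 11 of 267 bases, TRAV6-7-DV9 from TRAV6N-7 at 5, TRAV6-4 from TRAV6D-4 at 7, and TRAV6D-6 from TRAV6N-6 at 5 of 273. Between copy numbers the differences ran from 14 bases (94.8% identity, TRAV6-1 against TRAV6-2) to 63 bases (76.4%, TRAV6-4 against TRAV6-5 or TRAV6N-5). Only V parts of equal length were compared, so number 6, with 273 bases, was left out of this range. The commonest V sequence of a label made up 92.5% to 100% of its chains and was found in 8 libraries for each of the 13 labels.

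Labels could also part at the start of the CDR3, of which V encodes the first bases. The V parts were identical for TRAV6-5 and TRAV6N-5 and for TRAV6-3 and TRAV6D-3, but not for TRAV6-7-DV9 and TRAV6N-7. The commonest first 12 bases follow, with the base that differs between these starts in capitals. Positions are counted from 1 at the 5′ end of the CDR3.
TRAV6-5: tgtgctctgAgt
TRAV6N-5: tgtgctctgGgt
TRAV6-7-DV9: tgtgctctgAgt
TRAV6N-7: tgtgctctgGgt
TRAV6-3: tgtgctatgagA
TRAV6D-3: tgtgctatgagT
The difference is A10G from TRAV6-5 to TRAV6N-5 and from TRAV6-7-DV9 to TRAV6N-7, and A12T from TRAV6-3 to TRAV6D-3. T at base 12 was found in 97 of 97 TRAV6D-3 chains and in 0 of 264 TRAV6-3 chains. The V parts of these 2 labels were the same, and whether this base itself set the label was not tested. Of 589 TRAV6 receptors seen in 2 or more cells, 0 were split over 2 labels, so the cells of each of these receptors carried 1 label. Such cells share their CDR3 bases, so this does not show that the label is the right one.

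Copy number 7 was the most used, with 2022 clonotypes (39.1% of the TRAV6 clonotypes), followed by number 6 with 1489 (28.8%) and number 5 with 767 (14.8%). Numbers 4, 3, 2 and 1 had 329, 281, 197 and 92 clonotypes. By label, use within a number was uneven: number 7 came from TRAV6N-7 (1198) and TRAV6-7-DV9 (824), and number 6 came mostly from TRAV6D-6 (1231) with 258 from TRAV6N-6. No clonotype was labelled TRAV6-6 or TRAV6D-7, and whether chains of these genes carry the label of another copy was not tested. Number 5 came from TRAV6-5 (410), TRAV6N-5 (257) and TRAV6D-5 (100). By label, the D copy of numbers 3, 4 and 5 had fewer clonotypes than the copy without a letter. The counts were 76 against 205, 134 against 195 and 100 against 410. For number 3 the V parts were the same and the labels parted at base 12 of the CDR3. Whether its label counts measure use of the 2 genes was not tested.

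**Figure D1:**
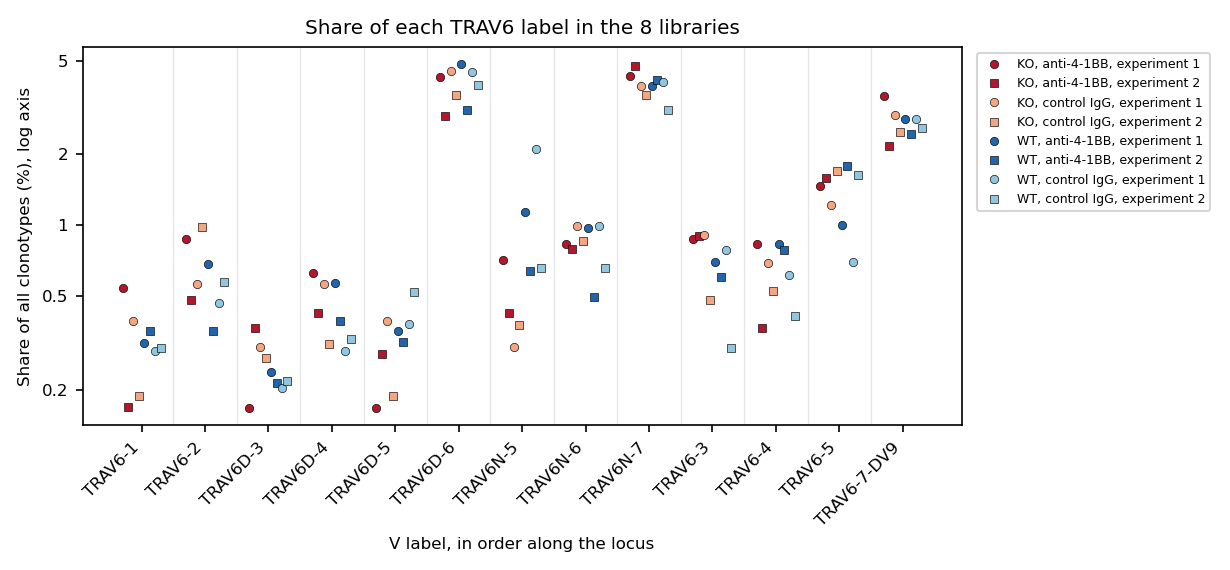
Share of all clonotypes (%, log axis) of each TRAV6 label in the 8 libraries, with labels in order along the locus, circles for experiment 1 and squares for experiment 2. TRAV6D-6, TRAV6N-7 and TRAV6-7-DV9 stood highest in the libraries shown, and TRAV6N-5 had the widest spread on the log axis, 0.303% to 2.10%.

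In experiment 1 the whole family made up 19.2% of clonotypes in KO with anti-4-1BB (95% exact binomial interval 17.7% to 20.9%) and 17.7% in KO with IgG, against 18.4% in WT with anti-4-1BB and 18.2% in WT with IgG. In experiment 2 it made up 15.7% in KO with anti-4-1BB and 15.5% in KO with IgG, against 15.7% in WT with anti-4-1BB and 15.2% in WT with IgG. The family averaged 17.0% ± 1.78 in KO and 16.9% ± 1.66 in WT libraries (SD, n = 4 each), a KO minus WT difference of 0.157 ± 0.583 percentage points (SD over 4 matched pairs), positive in 3 of 4, which turned to -0.0790 without either anti-4-1BB library of experiment 1. It averaged 17.2% ± 1.85 with anti-4-1BB and 16.7% ± 1.51 with IgG, a difference of 0.558 ± 0.671 points, positive in 4 of 4, with 0.229 without either KO library of experiment 1 and 0.0992 ± 1.20 with cells counted in place of clonotypes. It averaged 15.5% ± 0.193 in experiment 2 and 18.4% ± 0.639 in experiment 1, and the 4 libraries of experiment 2 all lay below the 4 of experiment 1 (-2.86 ± 0.588 points). These sums over chosen members were not tested. TRAV6 chains had a median of 5 to 9 UMIs per library, 1 below the median of other TRA chains in each of the 8 libraries. The libraries held 80551 to 445027 TCR UMIs, and binomial intervals cover counting error only.

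TRAV6N-5 (chromosome 14, 53104871 to 53105344) was the label that stood apart between genotypes. In experiment 1 it made up 0.711% of clonotypes in the KO anti-4-1BB library and 0.303% in the KO IgG library, against 1.13% in the WT anti-4-1BB library and 2.10% in the WT IgG library. In experiment 2 it made up 0.424% and 0.377% in the KO libraries, with anti-4-1BB and with IgG, against 0.640% and 0.657% in the WT libraries. The KO library was lower in 4 of 4 matched pairs, but the groups overlapped, since the highest KO share was above the shares in both WT libraries of experiment 2. It averaged 0.454% ± 0.178 in KO and 1.13% ± 0.685 in WT (SD, n = 4 each), a fitted log2 difference of -1.36 ± 0.31 (SE). With edgeR's quasi-likelihood test on clonotypes it was the 1 of 13 labels past an adjusted p of 0.05, beside 0.654% of all 153 V and J segments tested (2 at unadjusted p under 0.05), and because this contrast chose the family no p is given and nothing is read from that count. DESeq2 put 0 of 153 past the threshold (1 at unadjusted p under 0.05). The log2 difference was -0.56 ± 0.40 without both WT libraries of experiment 1, -0.83 without the experiment 1 WT IgG library, -1.09 without the experiment 1 WT anti-4-1BB library, -1.18 without the experiment 2 KO anti-4-1BB library and -1.50 without the experiment 2 WT anti-4-1BB library, and in each of these fits TRAV6N-5 was no longer past the threshold.

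The chains labelled TRAV6N-5 in both WT libraries of experiment 1 differed in sequence from those elsewhere. Among TRAV6N-5 chains, A at base 10 of the CDR3 was found in 56 of 120 chains (46.7%) in the experiment 1 WT anti-4-1BB library and 50 of 81 (61.7%) in the experiment 1 WT IgG library. In the KO libraries of experiment 1 it was found in 0 of 20 chains with anti-4-1BB, which allows a share of up to about 15.0%, and in 0 of 8 with IgG, which allows up to about 37.5%. These limits are 3 divided by the number of chains, a rough rule that treats chains as independent. In experiment 2 A at base 10 was found in 0 of 17 and 2 of 21 chains in the KO libraries and in 0 of 25 and 1 of 29 in the WT libraries, with anti-4-1BB and with IgG. Together this is 106 of 201 chains (52.7%) in 2 libraries and 3 of 120 (2.50%) in the other 6. TRAV6-5 chains had A at that base in 512 of 524 cases and G in 0 of them in any library.

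The TRAV6N-5 chains with A were not 1 expanded clone. They made up 109 chains with 91 different alpha chains, 31 TRAJ genes and 18 TRBV labels, and 109 of 109 had the 267-base V part shown above. They joined TRAJ genes with a mean number of 30.1, against 26.7 for TRAV6N-5 chains with G and 31.8 for TRAV6-5 chains with A. In the bases of the contig outside the V part, CDR3 and framework 4, lengths common among TRAV6-5 chains (170 and 181 bases, 55.9% of them) occurred in 1.83% of TRAV6N-5 chains with A and 3.43% of those with G. Lengths common among TRAV6N-5 chains with G (174, 176 and 197 bases, 25.0% of them) occurred in 27.5% of TRAV6N-5 chains with A and 0.781% of TRAV6-5 chains with A. The TRAV6N-5 chains with A were picked by their CDR3 base, so their likeness to TRAV6-5 at that base was set by the choice. Within the WT libraries of experiment 1 the mean TRAJ number of TRAV6N-5 chains with A was 30.2. It was 31.1 for TRAV6-5 with A and 25.5 for TRAV6N-5 with G. All these TRAJ means pooled chains over libraries and carry no spread, and their differences were not tested. By library, the mean over all TRAV6N-5 clonotypes ran from 23.2 to 33.0. The shares of the listed contig lengths in TRAV6N-5 chains with A were close to those of TRAV6N-5 chains with G. Most TRAV6N-5 chains, with A or with G, had none of these lengths.

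Counting TRAV6N-5 clonotypes without A, the shares were 0.711% and 0.303% in the KO libraries of experiment 1, against 0.593% and 0.788% in the WT libraries. In experiment 2 they were 0.424% and 0.335% in the KO libraries, against 0.640% and 0.629% in the WT libraries, with anti-4-1BB and with IgG. The log2 KO minus WT difference was then -0.64 ± 0.32, and that of TRAV6-5 and TRAV6N-5 clonotypes with A counted together was -0.22 ± 0.25. With the labels split in this way, which was chosen after the values were seen, 0 of 13 TRAV6 labels were past the threshold (1 at unadjusted p under 0.05), beside 0.0% of all 153 segments.

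**Figure D2:**
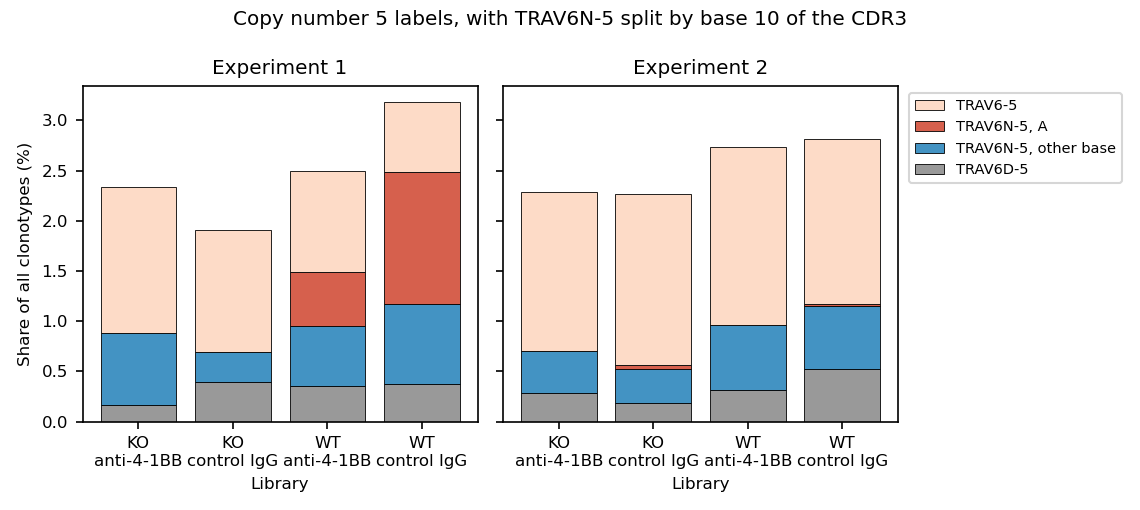
Share of all clonotypes (%) of the copy number 5 labels in each library, stacked, with TRAV6N-5 divided by base 10 of its CDR3; KO libraries stand left of WT libraries. TRAV6N-5 with A was a large part of the bar in both WT libraries of experiment 1 and at most 0.0419% in the other 6.

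Summing the copies avoids the choice between labels, but the sum of number 5 still holds TRAV6N-5, the label that chose the family. Copy number 5 made up 2.34% and 1.91% of clonotypes in the KO libraries of experiment 1 and 2.29% and 2.26% in those of experiment 2, against 2.49% and 3.18% in the WT libraries of experiment 1 and 2.74% and 2.82% in those of experiment 2, with anti-4-1BB and with IgG. The 4 KO libraries all lay below the 4 WT libraries, the 1 of 7 TRAV6 copy numbers whose libraries did not overlap between genotypes. Over all 119 summed segments the share was 0.84%, which is this 1 segment, and nothing is read from that count. It averaged 2.2% ± 0.198 in KO and 2.81% ± 0.286 in WT (SD, n = 4 each), a log2 difference of -0.34 ± 0.19. With copies summed, 0 of 7 TRAV6 numbers were past the threshold in edgeR, beside 0.0% of all 119 segments (0 at unadjusted p under 0.05).

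The other labels had smaller fitted differences between genotypes. The fitted log2 KO minus WT differences were 0.43 ± 0.31 for TRAV6-2, 0.36 ± 0.41 for TRAV6D-3, 0.35 ± 0.31 for TRAV6-3, 0.26 ± 0.26 for TRAV6-5 and -0.66 ± 0.38 for TRAV6D-5, and the other 7 lay between -0.14 and 0.22. The median over the 13 labels was 0.10, against 0.02 over all 153 segments, and 8 of 13 were positive. With IgG alone, a part of the contrast that chose the family, TRAV6N-5 had -1.96 ± 0.44. It was the 1 label past the threshold, and the 0.654% of all segments called is this label, so nothing is read from that count. Without the experiment 1 WT IgG library TRAV6N-5 had -0.90 ± 0.56 and no call. That call was also lost without either KO IgG library (-1.85 and -2.16) or either WT anti-4-1BB library (-1.96 in both fits). With anti-4-1BB alone 0 of 13 labels passed (0.0% of all segments, 1 at unadjusted p under 0.05).

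**Figure D3:**
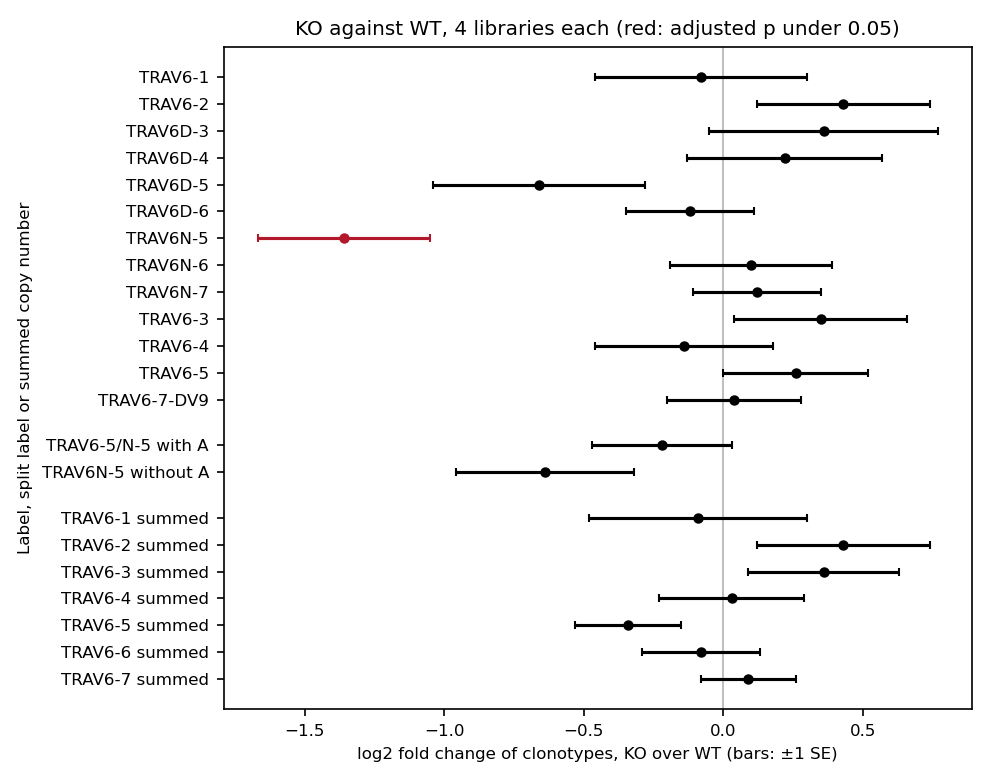
Fitted log2 fold change of clonotypes, KO over WT (4 libraries each, bars ± 1 SE, red for the label past the threshold), for the 13 labels, for TRAV6-5 and TRAV6N-5 divided by base 10, and for the copies summed. TRAV6N-5 as labelled stood at -1.36, TRAV6N-5 without A at -0.64 and copy number 5 summed at -0.34.

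With anti-4-1BB against IgG, 0 of 13 TRAV6 labels were past the threshold in edgeR, beside 0.654% of all 153 segments (0 TRAV6 labels and 5 segments at unadjusted p under 0.05; DESeq2 put 0 segments past it). The log2 differences were 0.50 ± 0.35 for TRAV6D-4, 0.37 ± 0.30 for TRAV6-3, 0.31 ± 0.32 for TRAV6-4, 0.23 ± 0.23 for TRAV6N-7 and -0.28 ± 0.39 for TRAV6D-5. Of the 13, 9 were positive, with a median of 0.05 against -0.03 over all segments. The libraries of 0 of 13 labels and 0 of 7 copy numbers were free of overlap between treatments, beside 1.96% of all 153 segments and 2.52% of all 119 summed segments. Within KO and within WT libraries 0 of 13 were past the threshold (0.654% of all segments in each), and a test of whether that effect differed between KO and WT also had 0 of 13 (0.0% of all segments, 4 at unadjusted p under 0.05).

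Between experiments 0 of 13 labels passed (0.654% of all segments; 3 TRAV6 labels and 20 segments at unadjusted p under 0.05), while the libraries of 3 labels did not overlap, beside 6.54% of all 153 segments. TRAV6D-6 averaged 3.38% ± 0.465 in experiment 2 and 4.53% ± 0.236 in experiment 1 (SD, n = 4 each). TRAV6-7-DV9 averaged 2.43% ± 0.180 in experiment 2 and 3.04% ± 0.348 in experiment 1, and TRAV6-5 averaged 1.68% ± 0.0835 in experiment 2 and 1.10% ± 0.323 in experiment 1. The log2 differences, experiment 2 minus experiment 1, were -0.43 ± 0.20 for TRAV6D-6 (edgeR adjusted p = 0.379), -0.31 ± 0.21 for TRAV6-7-DV9 (adjusted p = 0.521) and 0.66 ± 0.24 for TRAV6-5 (adjusted p = 0.138). TRAV6N-5 had -0.91 ± 0.29 (edgeR adjusted p = 0.0893). With TRAV6-5 and TRAV6N-5 divided by base 10 the values were 0.16 ± 0.23 for the clonotypes with A and -0.21 ± 0.31 for TRAV6N-5 without A, and copy number 5 summed had 0.04 ± 0.22. The median over the 13 labels as deposited was -0.43, against -0.03 over all segments. With copies summed, number 6 was the 1 of 7 whose libraries did not overlap between experiments (5.88% of all 119 segments), at 4.08% ± 0.504 in experiment 2 and 5.48% ± 0.293 in experiment 1, and 0 of 7 passed (0.84% of all segments).

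The J genes joined to TRAV6 differed between labels. TRAJ numbers fall from the V side of the J cluster towards the constant gene, so a high mean number means joins close to the V genes. TRAV6-7-DV9, the TRAV6 gene nearest to the J cluster, had a mean TRAJ number of 42.3 ± 1.19 over the 8 libraries (41.02 to 44.38). TRAV6N-7, which differs from it at 5 of the 267 V bases shown above, had 25.9 ± 0.915 (24.4 to 27.3). The libraries did not overlap, and TRAV6-7-DV9 was higher by 16.4 ± 1.93 within libraries, in 8 of 8. TRAV6D-6 had 31.9 ± 1.47 and TRAV6N-6 25.2 ± 2.62, and TRAV6D-6 was higher in 8 of 8 libraries, by 6.65 ± 3.36. These pairs were chosen after their values were seen, so the differences are a description, and the exact test that was run on them is not used as support.

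**Figure D4:**
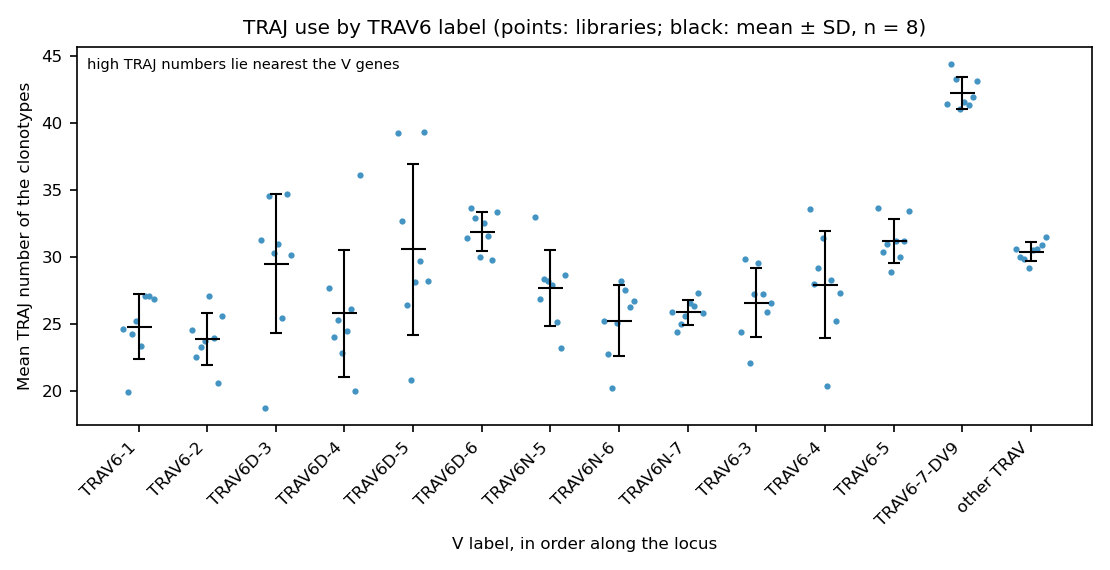
Mean TRAJ number of the clonotypes of each TRAV6 label, in order along the locus, and of all other TRAV clonotypes, with 1 point per library and the mean ± SD in black (n = 8). TRAV6-7-DV9 stood at 42.3, and the other labels had means between 23.9 and 31.9.

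The order along the chromosome, taken from the gene that each label names, was not followed by the other labels. TRAV6-2 and TRAV6-1, farthest from the J genes, had means of 23.9 ± 1.94 and 24.8 ± 2.43, but TRAV6D-3, TRAV6D-5 and TRAV6D-6 had 29.5 ± 5.22, 30.6 ± 6.35 and 31.9 ± 1.47, and TRAV6-3 and TRAV6-4, closer to the J genes, had 26.6 ± 2.56 and 27.9 ± 3.98. TRAV6-5 had 31.2 ± 1.63 and TRAV6N-5 27.7 ± 2.86. The commonest partner was TRAJ49 for TRAV6-7-DV9 (10.2% of its clonotypes), TRAJ22 and TRAJ23 for TRAV6N-7 (7.68% each), TRAJ31 for TRAV6D-6 (9.59%), TRAV6N-6 (9.30%), TRAV6-5 (12.4%) and TRAV6-1 (14.1%), and TRAJ21 for TRAV6-2 (16.8%). Over the whole family the mean was 30.6 ± 0.766, against 30.4 ± 0.713 for all other TRAV clonotypes, a difference of 0.241 ± 0.542 (exact sign-pattern permutation test over 8 libraries, two-sided p = 0.227, 0.333 after Benjamini-Hochberg adjustment over 4 measures).

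TRAV6 clonotypes were compared with all other TRAV clonotypes of the same library for their TRAJ, TRBV and TRBJ partners. Of 77 partner segments, 12 differed (15.6%; edgeR quasi-likelihood test with the library as a block, 26 at unadjusted p under 0.05), 6 higher and 6 lower in TRAV6. Of 43 TRAJ genes 3 rose and 5 fell, of 22 TRBV labels 2 rose and 1 fell, and of 12 TRBJ genes 1 rose. DESeq2 called 4 (14 at unadjusted p under 0.05), which were TRBJ2-1, TRAJ18, TRAJ57 and TRAJ48, and with cells counted in place of clonotypes edgeR called 3, TRBJ2-1, TRAJ18 and TRBV1.

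TRBJ2-1, a joining gene of the beta chain, made up 12.3% ± 2.18 of TRAV6 clonotypes and 9.18% ± 0.670 of others (SD, n = 8), with a median of 12.4% in TRAV6 and a range of 8.58% to 15.0%, against a median of 8.91% and 8.64% to 10.6% in others. It was higher in 7 of 8 libraries, by log2 0.44 ± 0.08 (edgeR adjusted p = 0.000141), and the ranges overlapped. It was not the habit of 1 copy: TRBJ2-1 made up 16.2% of copy number 2, 13.4% of numbers 5 and 7, 12.5% of number 4, 10.7% of number 6, 9.78% of number 1 and 9.25% of number 3. In other V families it made up 9.45% of TRAV7, 10.6% of TRAV9, 7.41% of TRAV13 and 9.78% of TRAV14 clonotypes.

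Among beta V genes, TRBV31 rose to 9.06% in TRAV6, against 7.50% in others (log2 0.30 ± 0.08, higher in 7 of 8 libraries, edgeR adjusted p = 0.00515). TRBV20 rose to 5.67% in TRAV6, against 4.49% in others (log2 0.30 ± 0.10, higher in 7 of 8, adjusted p = 0.0267). TRBV1 fell to 5.21% in TRAV6, against 6.69% in others (log2 -0.37 ± 0.10, lower in 8 of 8, adjusted p = 0.00345). TRBV1 was below its share in other receptors in each copy number, from 2.17% in number 1 to 5.84% in number 6, and it was 9.91% in TRAV13.

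Among TRAJ genes, TRAJ48 rose (2.28% ± 0.420 in TRAV6 and 1.46% ± 0.139 in others, log2 0.65 ± 0.16, higher in 8 of 8 libraries, edgeR adjusted p = 0.00345), as did TRAJ31 (8.12% against 6.46%, log2 0.32 ± 0.10, adjusted p = 0.0189) and TRAJ32 (2.53% against 1.80%, log2 0.47 ± 0.16, adjusted p = 0.0282). By label TRAJ48 stood highest in TRAV6-7-DV9, at 7.16% of its clonotypes, and made up 2.93% of TRAV6-5, 1.75% of TRAV6N-7 and 1.08% of copy number 6. TRAJ31 made up 14.1% of TRAV6-1, 10.8% of copy number 5 and 9.54% of number 6, and 3.55% of TRAV6-2.

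TRAJ18 fell to 1.56% in TRAV6, against 2.84% in others (log2 -0.88 ± 0.17, lower in 8 of 8 libraries, edgeR adjusted p = 0.000171). TRAJ18 is the J gene of the invariant alpha chain of natural killer T cells, which is built with TRAV11, and with clonotypes of that invariant chain left out, a choice made after the values were seen, its log2 difference was -0.40 ± 0.16 and the call was lost (edgeR adjusted p = 0.098). TRAJ57 fell to 1.405%, against 2.27% (log2 -0.74 ± 0.18, adjusted p = 0.00312), and TRAJ56 to 1.42%, against 2.25% (log2 -0.57 ± 0.18, adjusted p = 0.0233). Both are among the J genes nearest to the V cluster, and the copies differed: TRAJ57 made up 2.79% of TRAV6-7-DV9 and 0.250% of TRAV6N-7 clonotypes, and TRAJ56 made up 4.73% of TRAV6-7-DV9 and 0.0835% of TRAV6N-7 clonotypes. TRAJ37 (3.74% against 5.13%, log2 -0.49 ± 0.12, adjusted p = 0.00345) and TRAJ27 (3.45% against 4.89%, log2 -0.48 ± 0.14, adjusted p = 0.00952) fell too.

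Of the 12, 8 were called whichever library was left out, and 4 were not. The call was lost for TRAJ31 without either KO IgG library or the experiment 2 WT IgG library (log2 0.27 to 0.31), and for TRAJ56 without the experiment 1 KO anti-4-1BB, experiment 1 WT IgG, experiment 2 KO IgG or experiment 2 WT anti-4-1BB library (log2 -0.54 to -0.48). It was lost for TRBV20 without the experiment 1 KO anti-4-1BB library, either WT IgG library or the experiment 2 KO IgG library (log2 0.25 to 0.30), and for TRAJ32 without either KO anti-4-1BB library, the experiment 1 WT IgG library or the experiment 2 KO IgG library (log2 0.41 to 0.46).

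**Figure D5:**
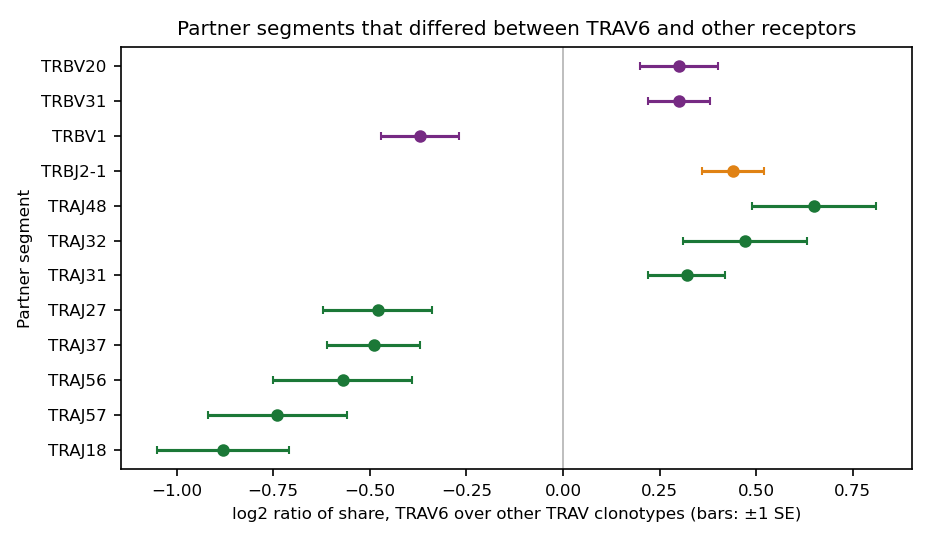
Log2 ratio of the share of each partner segment that passed the test, TRAV6 over other TRAV clonotypes within libraries (bars ± 1 SE; green TRAJ, orange TRBJ, purple TRBV). TRAJ48 stood highest at 0.65 and TRAJ18 lowest at -0.88.

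The CDR3 alpha of TRAV6 receptors was longer than that of other receptors. It averaged 13.7 ± 0.0484 residues in TRAV6 and 13.4 ± 0.0689 in other clonotypes (SD over 8 libraries), longer by 0.377 ± 0.0640 in 8 of 8 (exact sign-pattern permutation test, two-sided p = 0.00781, the smallest that 8 libraries allow; 0.0312 after adjustment over 4 measures). TRAV6-7-DV9 had 14.01 residues and TRAV6-4 13.4, and TRAV7, TRAV9, TRAV13 and TRAV14 had 13.4, 13.4, 13.0 and 13.3. A second alpha chain was found in 6.46% ± 1.67 of TRAV6 and 6.62% ± 1.56 of other clonotypes, a difference of -0.158 ± 0.899 points (exact sign-pattern permutation p = 0.62, before and after adjustment).

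Expansion was measured as the share of cells whose clonotype held at least 2 cells, after thinning each library to 2656 paired cells, the size of the smallest. In experiment 1 it was 14.5% and 25.7% of TRAV6 cells in the KO libraries (anti-4-1BB, IgG), against 13.1% and 15.9% in the WT libraries. In experiment 2 it was 23.2% and 22.2% in the KO libraries, against 38.4% and 19.2% in the WT libraries. The experiment 2 WT anti-4-1BB library stood highest. Without thinning, the experiment 1 WT anti-4-1BB library, the largest, had 24.3%.

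The KO minus WT difference was -0.226 ± 10.6 points over 4 matched pairs, positive in 3 of 4 (exact permutation within pairs, two-sided p = 1.0; 0.125 is the smallest the design allows), with 5.65 points in experiment 1 and -6.10 in experiment 2. The anti-4-1BB minus IgG difference was 1.54 ± 12.8 points, positive in 2 of 4 (exact permutation p = 0.875, adjusted 1.0), with -7.00 points in experiment 1 and 10.1 in experiment 2. Against other TRAV cells of the same library, TRAV6 cells had 21.5% ± 8.14 and others 23.4% ± 9.47, a difference of -1.84 ± 4.07 points, positive in 3 of 8 (exact sign-pattern permutation p = 0.25, adjusted 0.333). By label and without thinning, with libraries weighted equally, 33.8% ± 16.8 of TRAV6-2 cells lay in expanded clonotypes (SD, n = 8, range 13.0% to 59.1%), 29.0% ± 12.2 of TRAV6D-6 cells (12.4% to 50.3%) and 28.3% ± 10.7 of TRAV6N-7 cells (12.5% to 43.3%). TRAV6-1 had 13.7% ± 13.4 (0.0% to 36.4%) and TRAV6D-4 had 10.2% ± 12.3 (0.0% to 33.3%). These ranges over libraries overlapped, and a library held as few as 6 TRAV6-1, 10 TRAV6D-4 and 13 TRAV6-2 cells. The TRAV6-2 share was highest in the KO libraries of experiment 2, at 56.7% of 30 cells with anti-4-1BB and 59.1% of 88 cells with IgG.

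The 10 largest TRAV6 clonotypes had 11 to 37 cells. Their largest 3 are shown by their CDR3 alpha, to set beside the common starts above.
Largest clonotype: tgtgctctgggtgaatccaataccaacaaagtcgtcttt
Second largest: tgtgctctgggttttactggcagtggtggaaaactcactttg
Next largest: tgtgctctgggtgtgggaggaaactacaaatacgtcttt
The largest had 37 cells (0.834% of the paired cells of the experiment 2 WT anti-4-1BB library, exact interval 0.588% to 1.15%) and joined TRAV6D-6 and TRAJ34 with TRBV5 and TRBJ2-4. The second had 31 cells of the same library, with TRAV6N-7 and TRAJ44 and a beta chain labelled with both TRBV12-2 and TRBV13-2. The next had 29 cells of the experiment 2 KO IgG library (0.484%), with TRAV6N-7, TRAJ40 and TRBV26. Another, of 24 cells with TRAV6-7-DV9 and TRAJ40, was again from the experiment 2 WT anti-4-1BB library.

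Receptors shared between libraries were few. Of 71086 barcodes, 3198 occurred in 2 or more libraries, and 0 of these had the same receptor in them. Of 5170 TRAV6 receptors identical in nucleotides, 7 were found in 2 or more libraries. By amino acids, 26 of 5116 TRAV6 alpha and beta pairs (0.508%) occurred in 2 or more libraries, against 129 of 24996 pairs of other TRAV receptors (0.516%).

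The TRAV6 pair found in most libraries joined TRAV6-2 and TRAJ21 with TRBV5 and TRBJ2-4. It had 31 cells in 11 clonotypes of 4 libraries, with 21 cells in the experiment 2 KO IgG library, 6 in the experiment 2 KO anti-4-1BB library, 3 in the experiment 2 WT IgG library and 1 in the experiment 1 WT anti-4-1BB library. Its amino acids were reached by 4 alpha and 7 beta nucleotide sequences, of which the commonest are shown with capitals where they differ from the first. Alpha 1: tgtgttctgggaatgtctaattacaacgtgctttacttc
Alpha 2: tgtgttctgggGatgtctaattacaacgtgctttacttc
Alpha 3: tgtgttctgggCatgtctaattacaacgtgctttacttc
Beta 1: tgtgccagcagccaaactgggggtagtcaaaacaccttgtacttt
Beta 2: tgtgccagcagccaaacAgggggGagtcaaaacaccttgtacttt
Beta 3: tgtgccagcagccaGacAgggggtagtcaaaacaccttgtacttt
Beta 4: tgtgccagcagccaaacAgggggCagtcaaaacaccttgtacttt
Alpha 1 was found in 14 cells of 2 libraries and alpha 2 in 13 cells of 4, while beta 1 was found in 20 cells of 2. Alpha 2 and alpha 3 each differ from alpha 1 at 1 base, and betas 2 to 4 each differ from beta 1 at 2 bases, all without a change of amino acid.

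The same alpha chain ending occurred in 24 TRAV6-2 clonotypes (63 cells), of which 19 used TRBV5 and 22 TRBJ2-4. Of these 24, 15 came from the experiment 2 KO IgG library. With TRAV6-3 the ending occurred in 3 clonotypes and with TRAV6D-3 in 1, each with TRBV5. It also occurred in 6 clonotypes of TRAV6N-7, 1 of TRAV6-4 and 1 of TRAV6D-6, and 0 of these used TRBV5. TRAJ21 made up 31.9% of TRAV6-2 clonotypes in the experiment 2 KO IgG library (15 of 47, and 46 of 88 cells). It made up 17.6% in the KO anti-4-1BB library (3 of 17), 19.0% in the WT IgG library (4 of 21) and 10.0% in the WT anti-4-1BB library (1 of 10) of that experiment, and 0.0% to 13.5% in the 4 libraries of experiment 1. A second pair, TRAV6-3 and TRAJ22 with TRBV5 and TRBJ2-7, was found in 12 cells of 3 libraries.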

How the data were processed

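Chains of CD44high CD4+ T cells were read by 10x Genomics 5′ V(D)J sequencing in 8 libraries. The submitters' processing notes name Cell Ranger 7.1.0, bcl2fastq 2.20.0, Seurat and build GRCm38. A V(D)J reference is not given in the sources used here. The authors deposited contig tables with V, J and CDR3 labels and UMI counts per chain. The 8 gene-expression libraries were not analysed here.

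Clonotypes per segment and library were counted from these tables and tested with edgeR 4.0.16 (R 4.3.3), with 1 fit for each segment type, its total as library size, and segments with at least 10 clonotypes in at least 2 libraries. P-values were adjusted by Benjamini-Hochberg over all segments, with 0.05 as the threshold. The fit held 4 group means, and the experiment contrast added an experiment term. TRAV6 clonotypes were set against other TRAV clonotypes with the library as a block. DESeq2 1.42.0 was an alternative. The exact tests ran in scipy 1.17.1, with pandas 2.3.3 and numpy 2.4.6 under Python 3.11.15; matplotlib 3.10.9 drew the figures. Gene positions came from RefSeq (GRCm38.p6), and sequences came from the deposited contigs.

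Numbers 1 and 2 in the labels are the experiments, a shared batch, so they pair the libraries across groups. Deviations of same-numbered libraries correlated at -0.13 to 0.40 over 6 pairs of groups. Alternatives changed the counting unit, chain filters, scaling, low-count filter, block and libraries used.

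The members and lists were chosen with earlier results of these data known. Named are each TRAV6 label, singly and summed by copy number, the called partner segments (at most 10 a direction), the 10 largest clonotypes, and the pairs found in most libraries. Features outside that rule, among them base 10 and the TRAJ pairs, were chosen after their values were seen. On simulated counts with a small set spread and 20 segments raised 4-fold, the tests recovered 100% of them and called 0% of the others higher. This held in KO minus WT (154 segments) and in TRAV6 minus other TRAV (77 segments). Calls of the others as lower were not counted. The raised segments were drawn from the more abundant ones, and the set spread was not matched to that of the data. Changes smaller than 4-fold were not simulated. The simulation therefore does not show how such changes, or rarer segments, fare.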

Additional observations from a re-analysis of the deposited data

Results flagged for a closer look

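After thinning, the expanded share of TRAV6 cells differed between treatments in opposite directions in the experiments. The anti-4-1BB minus IgG difference averaged 10.1 percentage points in experiment 2 (0.992 in KO, 19.2 in WT) and -7.00 in experiment 1 (-11.2 in KO, -2.79 in WT). The difference between experiments was not tested. Other TRAV cells of the same libraries had the same signs, with 11.4 points in KO and 20.3 in WT in experiment 2 and -4.73 in KO and -8.43 in WT in experiment 1. Without thinning the KO and WT values of TRAV6 cells had opposite signs in both experiments, with -0.0694 in KO and 19.5 in WT in experiment 2 and -11.4 in KO and 4.43 in WT in experiment 1. Of 4 checks for a library far from the others, none passed Dixon's critical value, which chance passes in about 1 of 20 checks.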

How the results depend on the processing

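Leaving aside fits without 1 library, 176 of 189 alternative values for the comparisons stayed on their side of the threshold or within their limit, and 440 of 469 for named segments; with 1 library left out these were 192 of 208 and 414 of 440. The sign turned in 1 comparison value and 16 segment values of the first kind, and in 7 and 40 of those with 1 library left out. Where values moved, the cause was not tested. The count of TRAV6 labels past the threshold, KO against WT and again within IgG, was 0 with DESeq2, with cells counted, with both WT libraries of experiment 1 left out and with base 10 in place of the label (the last 2 chosen after seeing the data). Leaving out 1 library gave 0 to 1 in both. For experiment 2 against experiment 1 the count was 1 with 3 or more UMIs and with all TRA chains, and 0 to 1 with 1 library left out; the label was TRAV6N-5. Partner segments called were 4 with DESeq2, 3 with cells counted, and 8 to 15 with 1 library left out.

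With the replicate block the KO minus WT difference of TRAV6N-5 was -1.18 ± 0.29, and the block changed no TRAV6 call; with no replicate block 9 partner segments were called. With 1 library left out the second TRA difference ran from -0.313 to 0.00679 points, positive without the experiment 2 KO anti-4-1BB library. The expanded share differences ran from -3.58 to 4.76 points for KO minus WT, positive without either anti-4-1BB library of experiment 2, and from -4.34 to 5.79 for anti-4-1BB minus IgG, negative without either WT library of that experiment. With clonotypes counted, KO minus WT was 0.451 points. TRAV6N-5 in the KO libraries of experiment 1 rests on 20 and 8 chains, so the share with A there is limited to about 15.0% and 37.5% only.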

Other observations

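TRAV6D-5, the third gene of copy number 5, had G at base 10 of the CDR3 in 89.7% of 117 chains, and 6 of 17 of its chains had A in the experiment 2 KO anti-4-1BB library. TRAV6N-6 had A in 87.5% of 369 chains and TRAV6D-6 G in 95.3% of 1747 chains, the opposite way round from copy number 7, where the N copy had G in 94.2% of 1585 chains and TRAV6-7-DV9 had A in 92.3% of 1020. A V part 3 bases shorter at its start was found in 22 TRAV6N-5 chains of 7 libraries, 0 of them with A, and in 21 of the 22 the rest of it was contained in the commonest sequence.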
